A study of Saccharomyces cerevisiae with 71 samples.

Results

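The arrays carried 41 probes for cytosolic tRNAs of Saccharomyces cerevisiae, and 4 of them, named Leu-11, Leu-12, Leu-13 and Leu-14, detect leucine tRNAs (tRNALeu). They were chosen by name, with earlier results of these data known, and all 4 had a value on every array. Charging, the fraction of a tRNA that carries its amino acid, was compared by the study between a wild-type strain and an isogenic gcn2Δ strain after removal of single amino acids or sets of them from synthetic complete medium. Periodate destroys the 3' end of uncharged tRNA. Oxidized RNA therefore reports charged tRNA, and it was hybridized with untreated RNA, which reports total tRNA, in the opposite dye. Each value is a linear ratio of charged over total tRNA in a depleted culture relative to the reference culture of that strain and experiment, read in the same dyes.

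Both strains descend from EG328-1A and are prototrophic, with LEU2, TRP1 and URA3 restored. In the gcn2Δ strain the URA3 marker replaces GCN2, so its controls carry the deletion too. There were 26 depleted cultures, with 1 culture for each strain, medium and time point. Leu was removed for 5, 45 or 120 min (6 cultures), and Trp, Trp with Phe and Tyr, Arg, Arg with ornithine added, or His for 15 or 60 min (20 cultures). In the Leu experiment the titles give 5 min for the reference cultures, and the media were compared at different times. Medium and experiment cannot be told apart, and nothing in the labels shows independent repeats of a culture. The p-values therefore measure the spread between cultures of different media. Arrays with total tRNA in Cy3 are called Cy3 arrays, and their dye-swapped partners with total tRNA in Cy5 are called Cy5 arrays.

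The reference cultures have no measured spread, because their 22 charging arrays were set to 1 at every probe. Of 46 charging arrays of depleted cultures, 12 came from Leu depletion. The Leu Cy5 arrays, used as deposited, correlated with their Cy3 partners across the 41 probes at -0.21 (5 min), -0.11 (45 min) and -0.48 (120 min) for the wild type. For the gcn2Δ strain the values were -0.30, 0.22 and -0.19. Their direction is not settled, and the dye orientations are given apart. The Trp Cy5 arrays likely hold inverse ratios and were turned.

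Leucine is specified by several codons, which are read by isoacceptor tRNAs with different anticodons. A single cytosolic leucyl-tRNA synthetase, Cdc60, charges all of them. Leucine tRNAs belong to the tRNAs with a long variable arm. Yeast makes leucine from a precursor that it shares with valine, and the transcription factor Leu3, which responds to the intermediate α-isopropylmalate, acts on this pathway beside Gcn4. Uncharged tRNA activates the kinase Gcn2, which raises translation of Gcn4. Which anticodon or locus each of the 4 probe numbers stands for is not paired in the files, and the probes are given here under their array names.

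In the 5 media that kept leucine, the 4 Leu probes stayed close to their reference. The mean of the arrays of a culture lay within 1.25-fold of the reference in all 20 cultures for each probe, and 132 of the 136 single array values did so, a limit chosen after the values were seen. On the log2 scale, after each array was centred on its median, Leu-11 ranged from -0.28 through a median of 0.06 to 0.39 over the 20 Cy3 arrays. Leu-12 ranged from -0.18 through 0.06 to 0.31. Leu-13 ranged from -0.21 through 0.09 to 0.28. Leu-14 ranged from -0.16 through 0.03 to 0.35. The ranges of the 4 isoacceptors overlapped almost completely. On the 14 Cy5 arrays the ranges were -0.12 to 0.55 for Leu-11, -0.22 to 0.15 for Leu-12, -0.11 to 0.26 for Leu-13 and -0.16 to 0.37 for Leu-14.

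**Figure D1:**
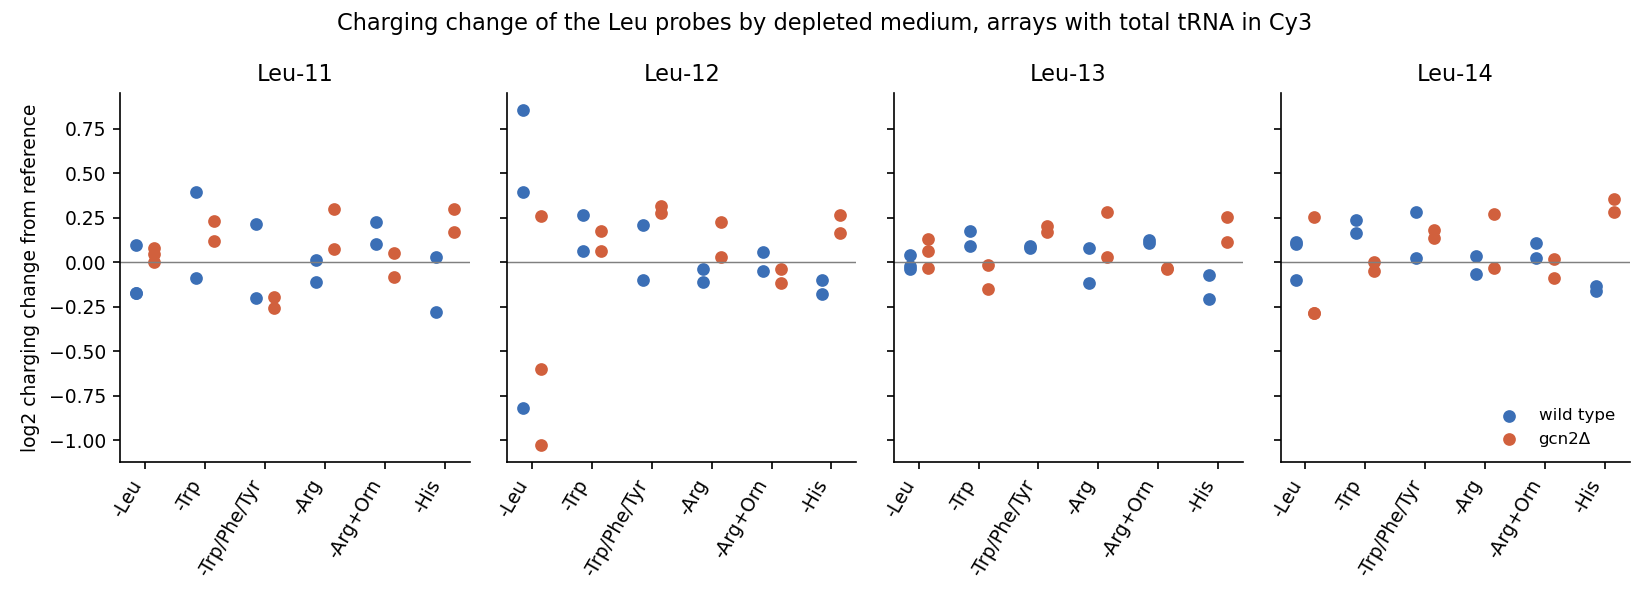
Log2 charging change from the reference (vertical axis) of each Leu probe on every Cy3 array of a depleted culture, by medium (horizontal axis), with wild-type cultures in blue and gcn2Δ cultures in orange; a point is 1 culture. Leu-12 spreads from -1.03 to 0.85 in Leu depletion, while the 20 other cultures lie between -0.18 and 0.31.

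The lowest Cy3 value of each isoacceptor in these media came from 1 culture, the wild type after 15 min without His, with ratios of 0.824 for Leu-11, 0.884 for Leu-12, 0.865 for Leu-13 and 0.892 for Leu-14. Its Cy5 partner gave 0.959, 0.859, 0.960 and 0.927, also below the reference. The gcn2Δ culture of that medium and time had Cy3 ratios of 1.23, 1.12, 1.19 and 1.28 in the same order and Cy5 ratios of 0.922, 0.912, 0.961 and 0.895, so the dyes put it on opposite sides of the reference. The highest Cy3 ratios were 1.31 for Leu-11 (wild type, Trp, 15 min), 1.24 for Leu-12 (gcn2Δ, Trp with Phe and Tyr, 15 min), 1.22 for Leu-13 (gcn2Δ, Arg, 15 min) and 1.28 for Leu-14 (gcn2Δ, His, 15 min). The 4 array values beyond 1.25-fold belonged to Leu-11 and Leu-14, and on the gcn2Δ Cy5 array for Arg with ornithine at 60 min these reached 1.46 and 1.29. Among the Cy3 arrays of these media, the isoacceptors parted most in the gcn2Δ strain without Trp, Phe and Tyr, where Leu-11 was at 0.837 and 0.873 at 15 and 60 min and the other Leu probes were between 1.10 and 1.24. The Cy5 partner at 60 min gave 0.961 for Leu-11, 0.897 for Leu-12, 1.13 for Leu-13 and 1.10 for Leu-14, so that Leu-12 was lowest there.

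Among these media, no Leu probe passed when 1 medium was compared with the others. When the 2 series of a medium (wild type and gcn2Δ, 60 min) were compared with the 8 series of the remaining 4 media with limma and Benjamini-Hochberg adjustment over the 41 probes at a threshold of 0.05, no probe passed for Trp, Arg, His or Arg with ornithine (0% of 41 probes each, against 2, 3, 1 and 3 probes with an unadjusted p under 0.05). The lowest differences among the 41 probes were -2.11 for Trp and -1.59 for Arg, and these did not pass either. The test joins both strains and missed differences of that size, so it cannot exclude a change of a Leu probe. For Trp with Phe and Tyr, 2 probes passed (4.88%), of which neither was a Leu probe. Phe-3, a phenylalanine tRNA whose amino acid was removed there, differed by -0.76 on the log2 scale (limma adjusted p = 0.041), and the threonine tRNA Thr-7 was higher by 0.45 (limma adjusted p = 0.043). The count of probes that passed ran from 0 to 3 when single series were left out. The widest Leu difference was for Leu-11 with ornithine, at 0.26 on average against 0.04 ± 0.11 (SD, n = 8) in the other media. The difference of 0.22 had an unadjusted limma p of 0.048 and an adjusted p of 0.662, and did not pass. On Cy3 arrays alone it was 0.11. The gcn2Δ culture with ornithine gave Leu-11 0.55 on its Cy5 array and 0.05 on its Cy3 array.

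No difference of the Leu probes between strains or time points passed the test in these media. Over the 5 media at 60 min, the gcn2Δ strain minus the wild type was -0.04 for Leu-11 (95% interval -0.27 to 0.20), 0.02 for Leu-12 (-0.19 to 0.23), 0.01 for Leu-13 (-0.19 to 0.20) and 0.00 for Leu-14 (-0.21 to 0.21). In limma 0 of 41 probes passed (0%, and 0 with an unadjusted p under 0.05), with an adjusted p of 0.989 for each Leu probe. The values at 60 min minus those at 15 min, over 10 series, were 0.07, 0.05, -0.02 and 0.06 in the same order. Again 0 of 41 probes passed (0%, 0 with an unadjusted p under 0.05), and the limma adjusted p lay between 0.714 and 0.739 for the Leu probes.

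In Leu depletion 1 of the 4 isoacceptors stood apart from the others on Cy3 arrays. Leu-11, Leu-13 and Leu-14 stayed within 1.25-fold of the reference in all 36 of their array values, while Leu-12 did so in 6 of 12. On the Cy3 arrays the deposited ratio of Leu-12 in the wild-type strain was 1.81 at 5 min, 1.32 at 45 min and 0.566 at 120 min. In the gcn2Δ strain it was 0.660 at 5 min, 0.491 at 45 min and 1.20 at 120 min. On these arrays the ratio fell in both strains from 5 to 45 min. From 45 to 120 min it fell further in the wild type and rose in the gcn2Δ strain. The wild type began above its reference and ended below it, and the gcn2Δ strain began below and ended above. Among the 41 probes, ordered from the lowest value, Leu-12 took rank 40, 39 and 2 over time in the wild-type strain. In the gcn2Δ strain it took rank 1, 2 and 37.

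The other isoacceptors were nearly level on the same arrays. Over the same times Leu-11 had ratios of 0.886, 0.887 and 1.07 in the wild-type strain and of 1.03, 1.06 and 1.00 in the gcn2Δ strain. Leu-13 had ratios of 1.03, 0.987 and 0.974 in the wild-type strain and of 1.09, 1.05 and 0.977 in the gcn2Δ strain. On Cy3 arrays Leu-13 was the steadiest probe in Leu depletion, with a log2 range of 0.17 over the 6 cultures, the narrowest of the 41 probes. On Cy5 arrays its range of 0.19 was rank 39 of 41 from the widest. In the other media its range was rank 39 on Cy3 arrays and rank 40 on Cy5 arrays. The Cy3 ratios of Leu-14 were 1.07, 1.08 and 0.934 in the wild-type strain and 0.822, 0.820 and 1.19 in the gcn2Δ strain. Leu-14 lay on the same side of the reference as Leu-12 in all 6 cultures, but no farther than 0.29 on the log2 scale.

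**Figure D2:**
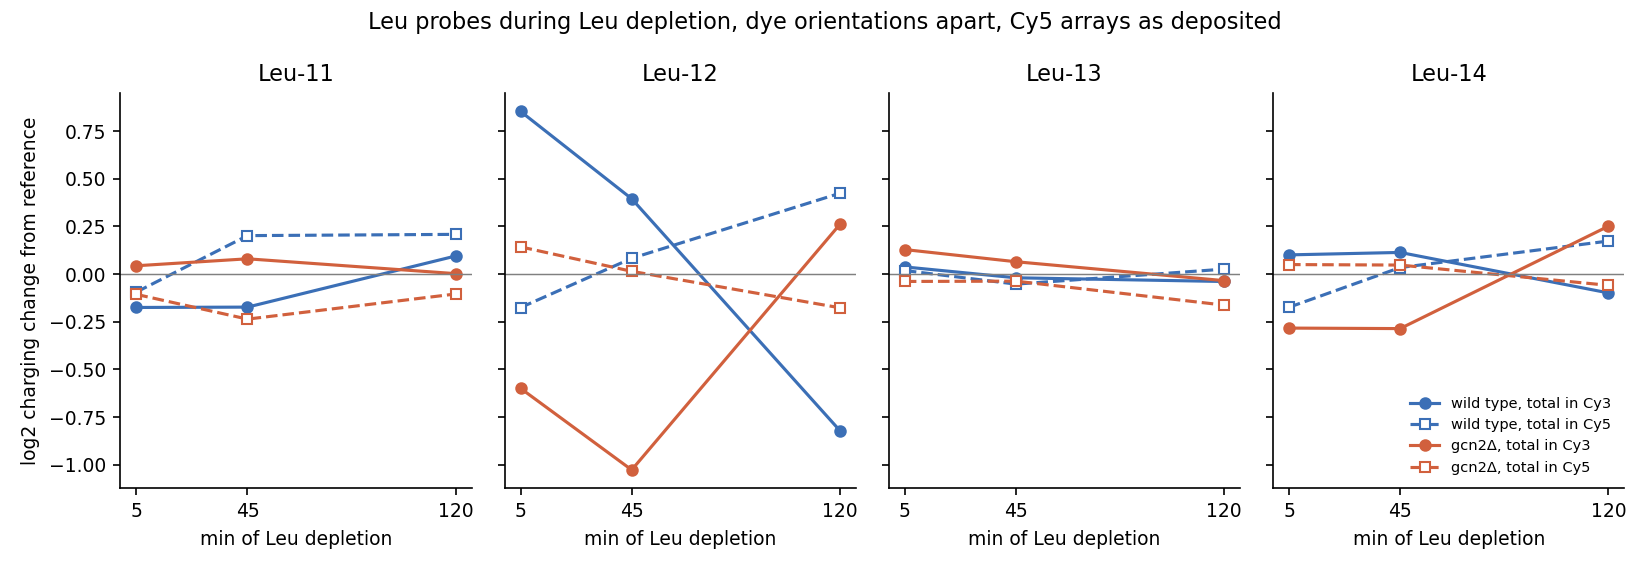
Log2 charging change from the reference (vertical axis) of each Leu probe against minutes of Leu depletion (horizontal axis), with the wild-type strain in blue, the gcn2Δ strain in orange, Cy3 arrays as filled circles with solid lines and Cy5 arrays as deposited as open squares with dashed lines; each point is 1 array. On Cy3 arrays Leu-12 goes from 0.85 to -0.82 in the wild-type strain and from -1.03 at 45 min to 0.26 at 120 min in the gcn2Δ strain, and on Cy5 arrays it lies between -0.18 and 0.42.

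If 1 reference served all time points of a strain, which was inferred from the arrays that hold 1, it cancels in differences between them. From 5 to 120 min, Leu-12 changed by -1.67 on the log2 scale in the wild-type strain and by 0.86 in the gcn2Δ strain on Cy3 arrays. Between 5 and 45 min the changes were -0.46 and -0.43, the same way in both strains. Between 45 and 120 min they were -1.22 and 1.29. In the other media, the difference of Leu-12 between 15 and 60 min lay between -0.21 and 0.31 over 10 series. On Cy5 arrays as deposited, the change of Leu-12 from 5 to 120 min was 0.60 in the wild-type strain and -0.32 in the gcn2Δ strain, opposite in sign to the Cy3 arrays (the same sign if turned). From 5 to 45 min the Cy5 changes were 0.26 and -0.13, opposite between the strains whether turned or not. From 45 to 120 min they were 0.34 and -0.19.

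The spread of Leu-12 over the Leu-depleted cultures was wide for the arrays as a whole. Its SD on Cy3 arrays was 0.76 over the 6 Leu-depleted cultures and 0.16 over the 20 other cultures, a ratio of 4.85 that was the highest of the 41 probes, whose median ratio was 0.782. The SD of Leu-11 was 0.12 against 0.20, that of Leu-13 was 0.07 against 0.13 and that of Leu-14 was 0.22 against 0.15. Thr-7 had the second ratio (4.20) and the glycine tRNA Gly-6 the third (3.65). The distance between the highest and lowest of the 4 isoacceptors on a Cy3 array had a median of 0.82 in Leu depletion (0.30 to 1.11) and of 0.18 in the other media (0.07 to 0.57). Without Leu-12 these medians were 0.29 and 0.14. On Cy5 arrays the SD ratio of Leu-12 was 2.14, the fourth of 41, where the median ratio was 0.703.

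Whether Leu depletion lowered the Leu probes was asked first with each strain as a unit. On Cy3 arrays, the 2 Leu series (mean of 45 and 120 min) were compared with the 10 series of the other media at 60 min. Leu-12 was -0.30 on average against 0.08 ± 0.13 (SD, n = 10), a difference of -0.38 (SE 0.11, 95% interval -0.62 to -0.13). This was the smallest p of the 41 probes but did not pass, with an unadjusted limma p of 0.0053 and an adjusted p of 0.219. The differences of Leu-11 (-0.05, 95% interval -0.30 to 0.20), Leu-13 (-0.03, -0.24 to 0.18) and Leu-14 (-0.08, -0.33 to 0.17) did not pass either, with a limma adjusted p of 0.991 each. No probe passed on Cy3 arrays (0% of 41, 2 with an unadjusted p under 0.05). Averages over 45 and 120 min join values of opposite sign in each strain.

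On Cy5 arrays as deposited, the same comparison against 8 series gave -0.08 for Leu-11 (95% interval -0.48 to 0.32), 0.08 for Leu-12 (-0.21 to 0.37), -0.11 for Leu-13 (-0.38 to 0.15) and 0.01 for Leu-14 (-0.32 to 0.33). No probe passed in limma (0% of 41, 0 with an unadjusted p under 0.05).

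Single cultures were then compared with the 10 cultures of the other media at 60 min on Cy3 arrays. A lone culture was assumed to vary like the 10, so that the error and p below come from the spread in the other media. For Leu-12 that SD was 0.16 over all cultures of those media, against 0.76 over the 6 Leu-depleted cultures, and repeat cultures in Leu depletion were not measured. An exact permutation test of 1 culture against 10 cannot give a p below 0.0909. The wild-type culture at 120 min had Leu-12 at -0.82 against 0.08 ± 0.13 (SD, n = 10). The difference was -0.90 (SE 0.15), or 1.87-fold lower, and passed with a limma adjusted p of 0.0048. The gcn2Δ culture at 45 min had Leu-12 at -1.03, a difference of -1.10 (SE 0.15), or 2.15-fold lower, which passed with a limma adjusted p of 0.00077. Leu-12 was 1 of 2 probes that passed in the former culture (4.88% of 41, both lower) and 1 of 3 in the latter (7.32%, all lower), and it had the smallest p in each. The wild-type culture at 45 min and the gcn2Δ culture at 120 min had no probe past the threshold (0% each, 1 with an unadjusted p under 0.05 in each), and there Leu-12 was higher than in the other media by 0.32 and 0.18 (limma adjusted p of 0.992 and 0.991).

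The call of Leu-12 in the wild type at 120 min depends on the dye orientation. On Cy5 arrays none of the 4 cultures had a probe past the threshold (0% each, with 0 and 5 probes at an unadjusted limma p under 0.05 for the wild type at 45 and 120 min, and 0 and 1 for gcn2Δ), and Leu-12 at 120 min in the wild type was higher by 0.41 as deposited (adjusted p = 0.270) and stood at a difference of -0.43 with the Leu Cy5 arrays turned (adjusted p = 0.488). With both dyes averaged as deposited, Leu-12 in the wild type at 120 min differed by -0.25 and no longer passed (limma adjusted p = 0.644). With the Leu Cy5 arrays turned before averaging it differed by -0.68 and passed (limma adjusted p = 0.0041). The gcn2Δ culture at 45 min kept its call of Leu-12 with dyes averaged, at -0.56 as deposited and -0.58 turned. That call rests on the Cy3 array, where Leu-12 was at -1.03. The Cy5 partner had Leu-12 at 0.01 as deposited, close to the reference. On Cy5 arrays alone, with the Leu Cy5 arrays turned, Leu-12 in this culture differed from the other media by -0.02. The Cy5 array therefore did not show the lower value by itself.

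Leu-11 and Leu-13 passed in none of these cultures on either dye, with differences on Cy3 arrays between -0.22 and 0.05. Leu-14 was lower by 0.36 in the gcn2Δ culture at 45 min, with an unadjusted limma p of 0.0495 and an adjusted p of 0.225.

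**Figure D3:**
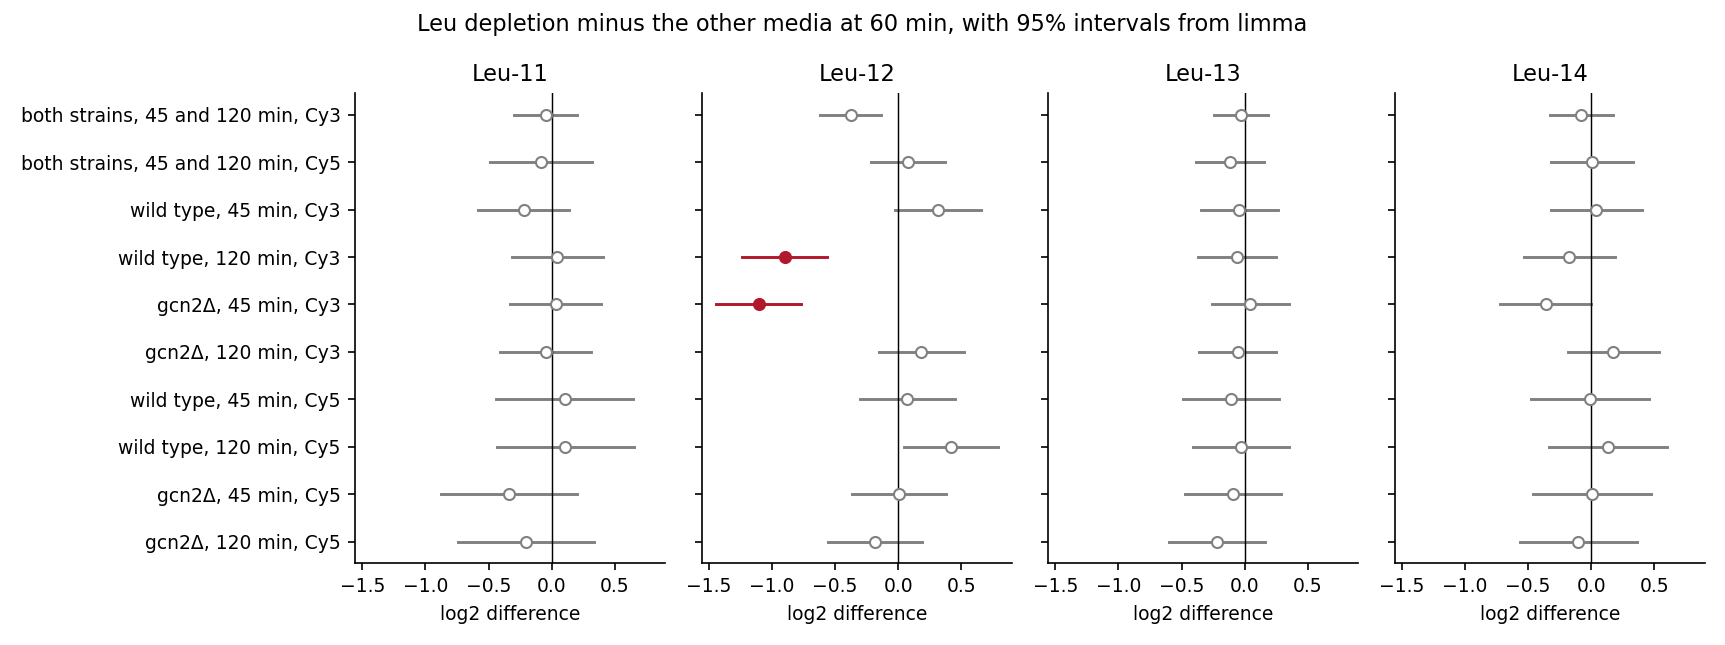
Difference in log2 charging between Leu depletion and the other media at 60 min (horizontal axis) for each Leu probe, by strain, time and dye orientation (rows), with points for the estimates and bars for 95% intervals from limma; red marks an adjusted p under 0.05. Only Leu-12 on Cy3 arrays is red, at -0.90 in the wild type at 120 min and at -1.10 in the gcn2Δ strain at 45 min.

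At 5 min the nearest cultures of the other media were those at 15 min, and this comparison was added after the values were seen. On Cy3 arrays Leu-12 in the wild-type strain stood at 0.85 against 0.06 ± 0.19 (SD, n = 10). It was higher by 0.79 (SE 0.20) and passed narrowly (limma adjusted p = 0.046), beside Thr-7, which was higher by 0.95 (limma adjusted p = 0.0081). These were the 2 probes that passed there (4.88%). The call of Leu-12 was lost when any of 6 of the 10 comparison cultures was left out, with a limma adjusted p between 0.061 and 0.083. In the gcn2Δ strain Leu-12 was lower by 0.66, with an unadjusted limma p of 0.0075 and an adjusted p of 0.175, and no probe passed (0%, 2 with an unadjusted p under 0.05). On Cy5 arrays at 5 min no probe passed in either strain (0% each, with 8 wild-type and 0 gcn2Δ probes at an unadjusted p under 0.05).

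The strain difference of Leu-12 changed sign with time. On Cy3 arrays the gcn2Δ strain minus the wild type was -1.45 at 5 min, -1.42 at 45 min and 1.08 at 120 min. On Cy5 arrays as deposited it was 0.32, -0.07 and -0.60 over the same times. In the other media the Cy3 difference lay between -0.10 and 0.41 over 10 pairs of cultures, so all 3 Cy3 values fell outside that range. With 45 and 120 min averaged, as the comparison was first set, the strain difference in Leu depletion minus that in the 5 other media was -0.25 for Leu-12 (95% interval -0.89 to 0.39), and no probe passed (0%, 0 with an unadjusted p under 0.05, limma adjusted p = 0.943). Time points were then tested singly, a choice made after the values were seen. Averaged or single, these tests set 1 Leu difference against 5, so the error and p come from the spread in the other media. An exact permutation test of 1 against 5 cannot give a p below 0.167. At 45 min the difference was -1.50 (SE 0.26, limma adjusted p = 0.0488), and Leu-12 was the only probe of 41 that passed (2.44%). At 5 min it was -1.64 (SE 0.30, limma adjusted p = 0.034), with Thr-7 and Gly-6 also lower (7.32%). At 120 min it was 1.00 (SE 0.26), with an unadjusted p of 0.0087 and an adjusted p of 0.269 in limma, and no probe passed (0%, 3 with an unadjusted p under 0.05). The call at 45 min was lost without any of the 5 other media (limma adjusted p between 0.059 and 0.100), and that at 5 min without Arg, His or Trp with Phe and Tyr. Neither call was kept with both dyes averaged. Leu-11, Leu-13 and Leu-14 did not pass at any time.

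The dye-swapped arrays of a culture were taken to hold the same RNA, and in Leu depletion they differed more for Leu-12 than for the other isoacceptors. In the 6 Leu-depleted pairs, as deposited, the absolute difference between dyes had a median of 0.886 for Leu-12 (0.312 to 1.25). In the 14 pairs of other media it was 0.125 (at most 0.433). For Leu-11 the medians were 0.132 and 0.165, for Leu-13 0.0834 and 0.110 and for Leu-14 0.292 and 0.165. As deposited, both dyes gave Leu-12 the same sign in 1 of 6 pairs, and with the Leu Cy5 arrays turned in 5 of 6. For Leu-14 the counts were the same, 1 and 5. For Leu-11 they were 2 and 4, and for Leu-13 3 and 3. Probes of other amino acids differed in this count. Gly-6 had the same sign in 0 pairs as deposited and in 6 when turned, and Val-8 in 2 and 4, but Thr-7 and Thr-8 each in 4 as deposited and in 2 when turned. As deposited, Cy5 minus Cy3 (mean of 45 and 120 min) of Leu-12 in Leu depletion exceeded that in 8 series of other media by 0.44. The 95% interval was 0.02 to 0.86, with an unadjusted limma p of 0.0405 and an adjusted p of 0.543. No probe passed (0%, 3 with an unadjusted p under 0.05). With the Leu Cy5 arrays turned, the excess of Leu-12 was 0.27.

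**Figure D4:**
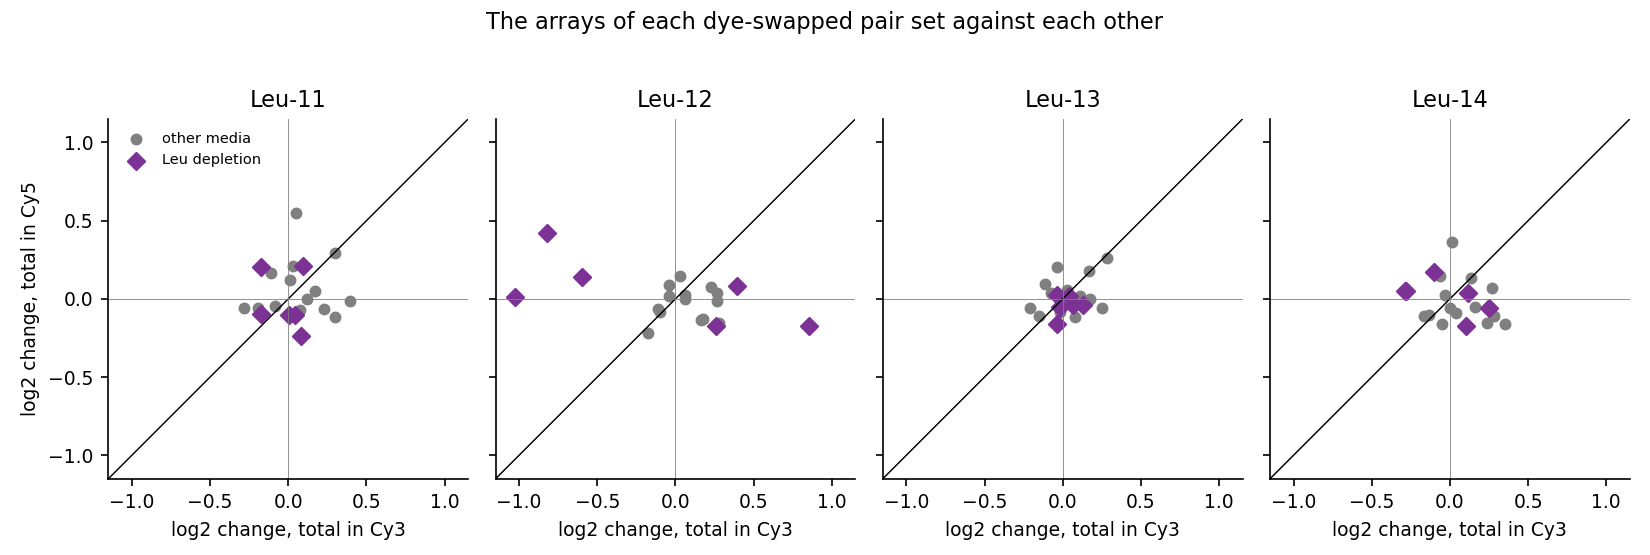
Log2 charging change on the Cy5 array (vertical axis) against that on the Cy3 array (horizontal axis) of the same culture for each Leu probe, with 6 Leu-depleted cultures as purple diamonds and 14 cultures of other media as grey circles; on the diagonal line both dyes are equal. Leu-12 in Leu depletion runs from -1.03 to 0.85 on the horizontal axis but only from -0.18 to 0.42 on the vertical axis.

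Probes for other amino acids moved with Leu-12 on the Cy3 arrays of Leu depletion. Thr-7 was at 0.93, 0.75 and -0.96 over time in the wild-type strain and at -0.29, -1.04 and 0.23 in the gcn2Δ strain. Gly-6 was at 0.61, 0.36 and -0.51 in the wild-type strain and at -0.41, -0.55 and 0.18 in the gcn2Δ strain. Each had the sign of Leu-12 in all 6 cultures. Thr-7 passed the test in the same cultures as Leu-12, with differences of -1.01 (wild type, 120 min) and -1.09 (gcn2Δ, 45 min; limma adjusted p of 0.037 and 0.021), and Gly-6 in the latter with -0.65 (limma adjusted p = 0.041). Across the 6 Cy3 arrays Leu-12 correlated with Gly-6 at 0.99, with Thr-8 at 0.99 and with Thr-7 at 0.97. These were ranks 1, 2 and 3 among the probes that are not Leu probes. Over the 20 Cy3 arrays of other media the values were 0.52, 0.70 and 0.56. On the Cy5 arrays of Leu depletion they were 0.92 for Gly-6 but -0.78 for Thr-8 and -0.76 for Thr-7. The 6 Cy3 arrays share 2 references and the centring on a median, and what threonine and glycine probes share with Leu-12 here was not tested. On Cy5 arrays as deposited, Thr-7 stood at 0.61, 0.19 and -0.23 in the wild-type strain and at 0.11, 0.08 and 0.09 in the gcn2Δ strain, while Gly-6 stood at -0.25, -0.06 and 0.26 and at 0.17, 0.07 and -0.24.

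The isoacceptors were also compared with each other. Over the 20 Cy3 arrays of other media every pair correlated positively, from 0.37 for Leu-11 with Leu-13 to 0.84 for Leu-13 with Leu-14, and Leu-12 correlated with Leu-14 at 0.78. In Leu depletion the 6 Cy3 arrays gave 0.83 for Leu-12 with Leu-14 and -0.91 for Leu-12 with Leu-11. Their 6 Cy5 partners gave 0.92 for Leu-12 with Leu-14 and 0.62 for Leu-12 with Leu-11, opposite in sign to the Cy3 arrays for the latter pair. The probes with a pattern most like the mean of the 4 Leu probes over all 26 Cy3 arrays were Thr-8 (Pearson r 0.83), the valine tRNA Val-8 (0.76) and Gly-6 (0.74).

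Isoleucine and valine share enzymes of their synthesis with leucine, and none of the 5 Ile and Val probes passed in any comparison. At most 3 of the 41 probes (7.32%) passed in a comparison, so this count is no result particular to the Ile and Val probes. Between the 2 Leu series and the other media on Cy3 arrays their median difference was -0.10, against -0.06 for the 4 Leu probes and 0.01 for all 41. In the cultures where Leu-12 passed, the median of the Ile and Val probes was -0.20 (wild type, 120 min), -0.16 (gcn2Δ strain, 45 min) and 0.12 (wild type, 5 min), and that of all 41 probes was 0.02, 0.06 and 0.03.

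The amount of tRNA, as a ratio to the reference culture, was measured for 1 condition, gcn2Δ cells deprived of Trp for 60 min, on 1 array per dye orientation. Leu-11 stood at 1.00 when Cy3 marked the reference and at 0.980 when Cy5 did. Leu-12 stood at 0.987 and 1.04, Leu-13 at 1.04 and 1.05 and Leu-14 at 0.939 and 1.03. The log2 means of the 4 probes were between -0.02 and 0.06, within the range of all probes from -0.30 to 0.36, and the median SD between dyes was 0.0758 for the 41 probes. With 1 pair of cultures there is no test. Abundance of the Leu tRNAs in Leu depletion was not analysed here.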

How the data were processed

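Charging was measured on 68 arrays and abundance on 3. The authors deposited a table of linear ratio values, 1 column per array and 41 probes, already scaled so that the median of an array of a depleted culture is close to 1 (0.995 to 1.01). The scanner, its software and any background correction are not given in the sources used here, and signal over background was not analysed. Values were log2-transformed without a pseudocount and centred per array on the median, and groups came from the labels. Comparisons used limma 3.58.1 under R 4.3.3 (lmFit, then eBayes), with Benjamini-Hochberg adjustment over the 41 probes, a threshold of 0.05 and 95% intervals. Figures were drawn with matplotlib 3.10.9. The fits were tested on 200 simulated data sets. An exact permutation test over series was an alternative, and its smallest two-sided p was 0.0152 for 2 against 10 and 0.0222 for 2 against 8. For a lone culture against 10 it could not go below 0.0909.

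The members and lists were chosen with earlier results of these data known. Named were the 4 Leu probes, Ile or Val probes that passed, the 3 probes most like the mean of the Leu probes, and up to 3 other probes that passed per comparison. Alternatives covered centring, dyes averaged or turned, time points, left-out experiments, robust eBayes and leaving out each series in turn.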

Additional observations from a re-analysis of the deposited data

Results flagged for a closer look

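Leu-11 in the gcn2Δ strain after 60 min without Arg but with ornithine stood apart on the Cy5 array, at a log2 value of 0.55, where the next of the 8 series of other media was at 0.21. The SD of that array over the 41 probes was 0.905, and that of its Cy3 partner, which gave Leu-11 0.05, was 0.345. Of 16 sets of values searched, 1 held such a stray value, and chance gives about 1 in 20.

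The strain difference of Leu-12 in Leu depletion (gcn2Δ minus wild type, Cy3 arrays) differed from that in the other media by -1.64 at 5 min and by -1.50 at 45 min, on the log2 scale, in tests chosen after the values were seen (limma adjusted p of 0.034 and 0.0488). With both dyes averaged as deposited the differences were -0.71 and -0.77 (limma adjusted p of 0.483 and 0.318).

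The Cy3 arrays at 5 min of Leu depletion, which entered no comparison planned at first, put Leu-12 at 0.85 in the wild-type strain, above the highest value of the other media at 15 min (0.31), and at -0.60 in the gcn2Δ strain, below the lowest (-0.18). Their Cy5 partners as deposited gave -0.18 and 0.14.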

How the results depend on the processing

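Within a comparison, no setting reversed a call of a Leu probe. Between dyes the sign did change for Leu-12 in the wild type at 120 min. It differed by -0.90 on Cy3 arrays and by 0.45 on Cy5 arrays as deposited, the latter against all cultures, and both passed. Among the settings chosen at the outset, leaving out 1 series changed no call of a Leu probe (696 of 696 values), and 479 of 480 values under the other settings kept their call. The exception was Leu-12 in the wild type at 120 min on Cy3 arrays with both dyes averaged (-0.25, limma adjusted p = 0.644). Most of these values belonged to results without a call of a Leu probe, which had none to lose. In the single-culture comparisons that called Leu-12, the Leu-depleted culture itself could not be left out. These counts therefore say little about how firm the calls of Leu-12 are. Counts of probes past the threshold moved more. For the wild type at 120 min on Cy3 arrays the count of 2 became 0 with both dyes averaged as deposited, 1 with the Leu Cy5 arrays turned, 1 without the Trp experiment and 4 against all cultures at 15 and 60 min, a comparison added after the data were seen. For the gcn2Δ strain at 45 min, 3 became 1 with dyes averaged, turned or not. Against all cultures, the Cy5 counts of 0 became 4 in the wild type at 120 min, where Leu-12 passed (0.45, limma adjusted p = 0.046), and 1 in the gcn2Δ strain at 120 min. For Trp with Phe and Tyr, 2 became 0 with centring on the other probes, 0 on Cy3 arrays alone and 1 with the Trp Cy5 arrays as deposited. For the strain difference at single times, 3 at 5 min and 1 at 45 min became 0 with dyes averaged, and 1 at 45 min became 0 with robust eBayes. The cause of these moves was not tested. Leaving out 1 series gave 1 to 3 probes for the wild type at 120 min on Cy3 arrays (1 without gcn2Δ Arg, gcn2Δ His or either series of Arg with ornithine) and 2 to 4 for the gcn2Δ strain at 45 min. It gave 0 to 1 for Trp (1 without its wild-type series), 0 to 4 for Arg (4 without its wild-type series) and 0 to 3 for Trp with Phe and Tyr (2 or more only without the gcn2Δ series of that medium or of Arg with ornithine). For the wild type at 5 min it gave 1 to 2 on Cy3 arrays (1 without gcn2Δ Trp, wild-type Arg, gcn2Δ His, wild-type Trp with Phe and Tyr or either Arg with ornithine) and 0 to 5 on Cy5 arrays (5 without gcn2Δ Arg). For the strain difference at 5 min it gave 0 to 3 (1 without Trp, 0 without Arg, His or Trp with Phe and Tyr), and at 45 min 0 whichever medium was left out. Strains, time points and dyes were compared as differences within an experiment or a culture, and no block by replicate number was fitted, since each condition held 1 culture. With 1 culture per condition and a reference set to 1, spread between repeat cultures was not measured.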
